A study of Mus musculus with 2 samples.

Results

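The genes described here are 4 chemokine ligands, Cxcl13, Ccl17, Ccl22 and Ccl8, and 3 chemokine receptors, Cxcr5, Ccr7 and Ccr2, measured in single immune cells from the pancreatic islets of NOD mice. They were chosen by symbol, as chemokines that position lymphocytes and monocytes, and all 7 were found among the 27998 genes of the deposited matrices. The choice by symbol used no threshold on their values, although earlier results of these data were known.

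Chemokines are small secreted proteins that guide leukocytes through G protein-coupled receptors. CXCL13 binds CXCR5 and organises B cell follicles, where B cells and follicular helper T cells carry the receptor. CCR7 takes naive and central memory T cells, B cells and mature dendritic cells to lymph nodes in response to CCL19 and CCL21. CCL17 and CCL22 are made by dendritic cells and bind CCR4, whereas mouse CCL8 acts on CCR8. CCR2 is the receptor of monocytes, plasmacytoid dendritic cells and many effector T cells for CCL2, CCL7 and CCL12. Stromal cells of lymphoid tissue are known sources of CXCL13, CCL19 and CCL21, and a sort for CD45.1+ leukocytes is meant to leave such cells out.

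The study sequenced CD45.1+ cells sorted by flow cytometry from islets of female NOD/ShiLtJ mice, a strain that develops autoimmune diabetes, at 12 weeks and at 7 weeks of age. Each age is 1 droplet library of 3' ends counted by unique molecular identifier (UMI). The number of mice behind a library is not in the labels, and age and library cannot be told apart. There are no replicate libraries, so no p-value is given, and every range in brackets is a 95% interval that covers counting error only.

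After filtering, 2782 cells remained at 12 weeks and 1099 at 7 weeks, with medians of 4950 and 5643 UMIs per cell. Cell barcodes shared by the libraries numbered 2. Cells were classed by their own UMIs: a CD8 T gate (Cd8a and Cd8b1 sum of 2 or more, no Cd4) held 482 cells at 12 weeks and 176 at 7 weeks, a CD4 T gate (1 or more Cd4, no Cd8a or Cd8b1) held 874 and 372, and a B gate (2 or more Cd79a) held 689 and 182. A macrophage gate (C1qa, C1qb and C1qc sum of 10 or more) held only 34 and 11 cells, a dendritic gate (10 or more of both Cst3 and H2-Aa) held 241 and 89, and a plasmacytoid dendritic (pDC) gate (3 or more Siglech) held 53 and 29. A cell could meet several gates, as 151 cells did at 12 weeks and 58 at 7 weeks, and 28 and 10 cells of the macrophage gate also met the dendritic gate. At both ages each gate held its own markers, with 6 of 6 B cell genes, 6 of 6 T cell genes in both T gates, 8 of 8 macrophage, 11 of 11 dendritic and 8 of 8 pDC genes in at least 10% of its cells. Levels are CPM, a gate's UMIs of a gene scaled to a total of 1000000 UMIs, and they are compared between gates or ages but never between genes.

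By the GENCODE annotation of GRCm38, the ligand genes lie on the forward strand: Cxcl13 (ENSMUSG00000023078) at chr5:95956951-95961068, Ccl8 (ENSMUSG00000009185) at chr11:82115185-82116799, Ccl17 (ENSMUSG00000031780) at chr8:94810453-94812036 and Ccl22 (ENSMUSG00000031779) at chr8:94745590-94751699. Ccl22 and Ccl17 are neighbours, with 58.8 kb between the end of Ccl22 and the start of Ccl17. Among the receptors, Ccr7 (ENSMUSG00000037944) is on the reverse strand at chr11:99144196-99155077, Cxcr5 (ENSMUSG00000047880) is on the reverse strand at chr9:44511787-44561877, and Ccr2 (ENSMUSG00000049103) is on the forward strand at chr9:124101950-124113557.

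The 4 ligand promoters are shown because a few cells at 12 weeks had 3 or more UMIs of both Cxcl13 and Ccl8 or of both Ccl17 and Ccl22. There, 5 of 16 cells with that much Cxcl13 shared it with Ccl8, and 2 of 6 with that much Ccl22 shared it with Ccl17. No cell did so at 7 weeks, as the values further on show. Each sequence is the RefSeq promoter of GRCm38.p6 on the forward strand, 250 bases before to 50 after the RefSeq start, at chr5:95956689-95956988 for Cxcl13, chr11:82114935-82115234 for Ccl8, chr8:94810203-94810502 for Ccl17 and chr8:94745434-94745733 for Ccl22. Capitals mark matches to 4 motifs searched on both strands: TATAAA, the TATA box; GGGNNNNNCC, the core of NF-kB sites; and TTCNNNGAA and TTCNNNNGAA, the spacings of STAT sites.
Cxcl13: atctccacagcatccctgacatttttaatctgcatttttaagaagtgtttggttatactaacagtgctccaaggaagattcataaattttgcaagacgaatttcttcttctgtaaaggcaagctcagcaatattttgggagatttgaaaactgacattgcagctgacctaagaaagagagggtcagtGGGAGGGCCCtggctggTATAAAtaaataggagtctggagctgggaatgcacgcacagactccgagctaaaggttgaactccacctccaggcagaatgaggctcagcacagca
Ccl8: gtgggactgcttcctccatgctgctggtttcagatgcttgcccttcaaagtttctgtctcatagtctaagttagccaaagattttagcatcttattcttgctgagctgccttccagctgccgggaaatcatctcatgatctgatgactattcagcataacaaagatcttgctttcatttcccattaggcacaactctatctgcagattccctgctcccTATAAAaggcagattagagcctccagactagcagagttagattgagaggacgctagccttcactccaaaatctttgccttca
Ccl17: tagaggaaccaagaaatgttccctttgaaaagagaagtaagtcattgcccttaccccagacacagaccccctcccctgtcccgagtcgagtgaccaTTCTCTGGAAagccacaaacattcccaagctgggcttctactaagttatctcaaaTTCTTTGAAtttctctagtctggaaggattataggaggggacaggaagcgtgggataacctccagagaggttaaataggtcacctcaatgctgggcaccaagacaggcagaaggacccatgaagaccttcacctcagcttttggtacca
Ccl22: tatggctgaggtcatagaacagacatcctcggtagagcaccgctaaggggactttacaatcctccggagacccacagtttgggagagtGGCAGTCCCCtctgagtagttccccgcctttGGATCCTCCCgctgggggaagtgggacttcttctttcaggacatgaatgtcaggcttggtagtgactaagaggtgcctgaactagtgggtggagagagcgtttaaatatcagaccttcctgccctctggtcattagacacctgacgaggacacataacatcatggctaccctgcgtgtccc
The letters TATAAA stood at -46 in Cxcl13 and at -32 in Ccl8, counted from the RefSeq start, and 13.6% of 32544 promoters hold them. GGGNNNNNCC matched at -63 in Cxcl13, on both strands over the same bases, and at -162 and -131 on the reverse strand in Ccl22, with 51.0% of all promoters holding it. Ccl17 held TTCNNNGAA at -99 and TTCNNNNGAA at -154, motifs found in 8.33% and 6.98% of promoters. These are letter matches in a window and no evidence of binding.

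Each ligand came from a handful of cells. Taking a holder as a cell with 3 or more UMIs of a ligand, Cxcl13 had 16 holders at 12 weeks (0.575% of cells, 0.329 to 0.932) and 3 at 7 weeks (0.273%, 0.0563 to 0.796). Ccl8 had 15 holders at 12 weeks (0.539%, 0.302 to 0.888) and 3 at 7 weeks (0.273%). Ccl22 had 6 at 12 weeks (0.216%, 0.0791 to 0.469) and 2 at 7 weeks (0.182%, 0.0220 to 0.656). Ccl17 had only 2 at 12 weeks (0.0719%, 0.0087 to 0.259) and 1 at 7 weeks (0.0910%, 0.0023 to 0.506). These intervals overlap between the ages for each of the 4 ligands.

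A single cell carried much of each total. Its share of the Cxcl13 UMIs was 63.1% at 12 weeks (937 of 1485) and 78.7% at 7 weeks (70 of 89). For Ccl8 the top cell held 34.8% at 12 weeks (1041 of 2994) and 83.1% at 7 weeks (74 of 89). For Ccl17 it held 75.7% at 12 weeks (112 of 148) and 96.0% at 7 weeks (24 of 25), and for Ccl22 37.3% (38 of 102) and 73.2% (52 of 71). A library-wide level of any of these ligands is thus the level of a few cells, and the plot of ligand UMIs per cell shows each of them.

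**Figure D1:**
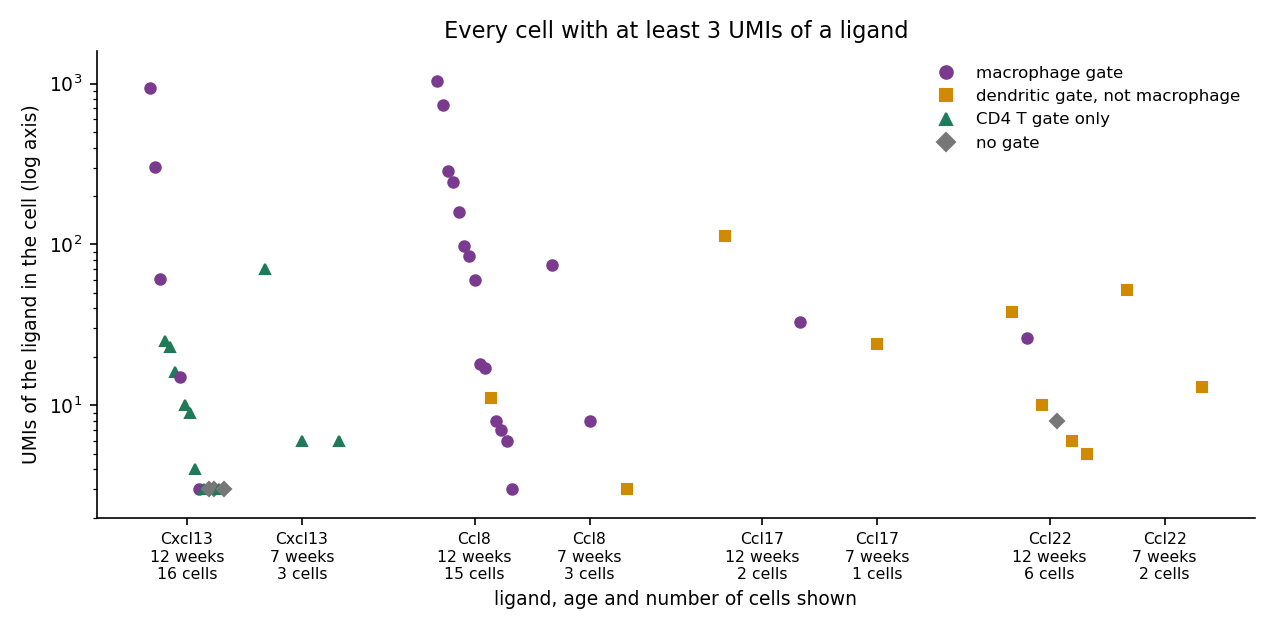
UMIs of Cxcl13, Ccl8, Ccl17 and Ccl22 in each cell with at least 3 UMIs of the ligand, on a log axis, 12 weeks left of 7 weeks. Symbols give the gate of the cell. The highest points at 12 weeks are macrophage-gate cells for Cxcl13 (937 UMIs) and Ccl8 (1041 UMIs), whereas the highest Cxcl13 cell at 7 weeks, with 70 UMIs, met the CD4 T gate only.

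Cxcl13, the B cell follicle chemokine, sat in macrophage-gate cells at 12 weeks and in CD4 T cells at both ages. At 12 weeks the macrophage gate held 1324 of the 1485 UMIs (89.2%), in 8 of its 34 cells, and 5 of these were holders with 937, 304, 61, 15 and 3 UMIs. At 7 weeks none of the 11 macrophage-gate cells had a Cxcl13 UMI, which allows a share of up to 27.3% when a 0 is taken as 3 counts. The gate's Cxcl13 level was 2749 CPM (2603 to 2901) at 12 weeks and 0 at 7 weeks, with too few cells for a ratio.

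Those 5 macrophage-gate cells were all among the 7 cells with the most Ccl8 at 12 weeks. Their Ccl8 counts, in the same order, were 246, 1041, 285, 85 and 734 UMIs, and their summed C1q counts ran from 242 to 856. All 5 held UMIs of Apoe, a lipid carrier of tissue macrophages, and of Ccl12, a CCR2 ligand. Their Cd3 genes, subunits of the T cell receptor complex, summed to 3, 1, 0, 0 and 0 UMIs.

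The other main carriers of Cxcl13 met the CD4 T gate and no other. At 12 weeks 8 such holders had 25, 23, 16, 10, 9, 4, 3 and 3 UMIs, and at 7 weeks 3 holders had 70, 6 and 6. Their Cd3 sums were 12 to 66 UMIs at 12 weeks and 26 to 29 at 7 weeks, and their C1q sums were 0 to 1 at 12 weeks and 0 at 7 weeks. These cells held T cell transcripts and nearly no C1q, as the plot of both sums shows. At 12 weeks 3 further cells with 3 Cxcl13 UMIs each met no gate; each held 31 to 61 Cd3 UMIs and UMIs of both Cd4 and Cd8b1.

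**Figure D2:**
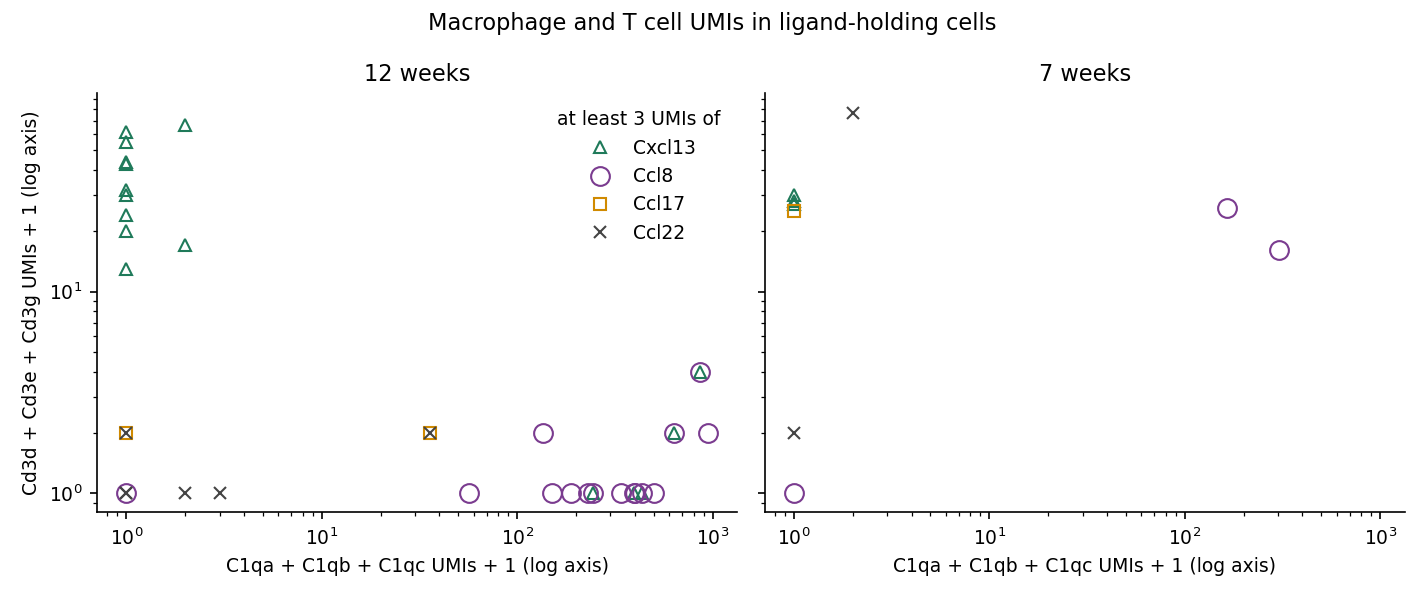
Each point is a cell with 3 or more UMIs of a ligand, placed by its summed C1q UMIs and its summed Cd3 UMIs (each plus 1, log axes), with 12 weeks in the left panel. Cxcl13 holders of the CD4 T gate lie at high Cd3 and at C1q sums of 0 to 1, whereas at 12 weeks the 5 Cxcl13 holders of the macrophage gate lie at C1q sums from 242 to 856.

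Cxcl13-holding CD4 T cells had UMIs of some follicular helper genes more often than other CD4 T cells, and of others not. Pdcd1, the inhibitory receptor PD-1, was found in 7 of 8 holders at 12 weeks and 3 of 3 at 7 weeks, against 36.2% (286 of 790) and 50.6% (168 of 332) of the other Cd3-positive CD4 T cells with no other gate. Tox2, a follicular helper transcription factor, was found in 6 of 8 holders at 12 weeks and 2 of 3 at 7 weeks, against 16.6% and 27.1% of the others. Per 10000 UMIs, Pdcd1 stood at 3.01 in holders and 2.04 in the others at 12 weeks and at 6.15 and 2.39 at 7 weeks, and Tox2 at 1.004 and 0.439 at 12 weeks and 0.820 and 0.699 at 7 weeks. Sh2d1a, the adaptor SAP, which T cells use in their contacts with B cells, was found in 7 of 8 holders at 12 weeks, against 61.4% of the others, and in 2 of 3 at 7 weeks, against 63.6%. Its level at 12 weeks was no higher in holders, with 2.91 per 10000 UMIs against 3.12 in the others. At 7 weeks the Sh2d1a level was 6.15 in holders against 3.08, with 14 of the holders' 15 UMIs in 1 cell. Icos, a costimulator, was found in 7 of 8 holders at 12 weeks, against 36.5%, and in 1 of 3 at 7 weeks, against 45.8%. Maf, a transcription factor, was found in 6 of 8 holders at 12 weeks, against 44.8%, and in 1 of 3 at 7 weeks, against 54.2%. The Maf level was lower in holders, at 1.91 per 10000 UMIs against 2.33 in the others at 12 weeks and 0.410 against 2.37 at 7 weeks. Bcl6, the follicular helper master factor, was found in 1 of 8 holders at 12 weeks, against 6.08%. At 7 weeks Bcl6 was found in 0 of 3, against 9.34%. So few holders show no difference in Bcl6. Il21, the follicular helper cytokine, was found in 3 of 8 holders at 12 weeks, against 14.4%, and in 0 of 3 at 7 weeks, against 19.0%. Cxcr5 was found in 0 of 8 holders at 12 weeks and 0 of 3 at 7 weeks, against 95 of 790 (12.0%) and 46 of 332 (13.9%) of the others, shares at which 0 of so few cells shows no difference. The 3 holders with no gate, which were deep cells of 19843 to 35727 UMIs, had 3, 1 and 0 Cxcr5 UMIs. Foxp3, the regulatory T cell factor, had 1 UMI in the no-gate holder of 35727 UMIs. It was found in 0 of 8 CD4 T holders at 12 weeks and 0 of 3 at 7 weeks. The others had it in 55 of 790 cells (6.96%) and 44 of 332 (13.3%), shares at which 0 of so few cells shows no difference. The holders were deeper than the others, with medians of 8407 against 4611 UMIs per cell at 12 weeks and 5981 against 5636 at 7 weeks, and the part of depth in these shares was not tested.

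Across the whole CD4 T gate Cxcl13 stood at 33.4 CPM at 12 weeks (186 UMIs) and 29.7 CPM at 7 weeks (86 UMIs; ratio 1.13, 0.867 to 1.47). The CD4 T gate at 12 weeks also held 11 cells that met the macrophage gate, and among cells with 1 gate only the levels were 22.0 CPM at 12 weeks and 34.1 CPM at 7 weeks (ratio 0.647, 0.482 to 0.870). The direction therefore turned with the cells counted. Without the 5 top cells of each library the log2 ratio was 3.58. Those cells held 140 of the 186 UMIs at 12 weeks and 84 of the 86 at 7 weeks. Too few 7-week UMIs remained for that ratio to be read as a difference between the ages.

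Ccl8, which recruits cells through CCR8 in mice, was a product of the macrophage gate. That gate held 2773 of 2994 UMIs at 12 weeks (92.6%) and 82 of 89 at 7 weeks (92.1%), at levels of 5757 CPM and 641 CPM. The macrophage-gate cells differed widely among themselves: 14 of 34 were holders at 12 weeks, with 3 to 1041 UMIs and a median of 72.5, and 2 of 11 at 7 weeks, with 74 and 8 UMIs. Ccl8 was at 0 in 15 of the 34 cells at 12 weeks and in 9 of the 11 at 7 weeks. Of the 14 holders at 12 weeks, 13 held Apoe and 12 held Ccl12, while 3 held Ccr2 and none held Ccr7. In the whole macrophage gate at that age 14 of 34 cells held Ccr2 and 0 of 34 held Ccr7, so the lack of Ccr7 was not particular to holders. The pair of 7-week holders carried 25 and 15 Cd3 UMIs beside C1q sums of 164 and 301, whereas the 12-week holders of that gate carried 0 to 3. Over the whole macrophage gate the T cell list summed to 1.39 per 10000 UMIs at 12 weeks and 5.70 at 7 weeks, and its part in the Ccl8 values was not tested. The remaining holder at each age met the dendritic gate without the macrophage gate and had 11 Ccl8 UMIs at 12 weeks and 3 at 7 weeks, beside 11 and 9 Ccr2 UMIs.

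The dendritic gate shares most macrophage-gate cells and so repeats these values. Its Ccl8 level was 818 CPM at 12 weeks and 62.9 CPM at 7 weeks (13.0-fold, 10.5 to 16.3), and its Cxcl13 level was 412 CPM at 12 weeks and 1.48 CPM at 7 weeks (1333 and 2 UMIs, 278-fold, 76.9 to 2301). In dendritic-gate cells that met no other gate, Ccl8 fell back to 12.5 CPM at 12 weeks and 4.13 CPM at 7 weeks, and Cxcl13 to 3.58 and 1.38 CPM. Over both libraries the genes that set the 17 Ccl8 holders of the dendritic gate most apart from its other 313 cells were led by Cxcl13 (364-fold; a UMI in 7 of 17). They included Ms4a7, a macrophage membrane protein (32.7-fold, 16 of 17), Pf4, a platelet and macrophage chemokine (46.6-fold, 8 of 17), and C1qc (28.6-fold, 15 of 17).

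Ccl8 was also found at 1 or 2 UMIs in lymphocytes at 12 weeks. In the CD4 T gate the level was 265 CPM at 12 weeks and 28.3 CPM at 7 weeks (9.34-fold, 7.48 to 11.8), but 3 cells that also met the macrophage gate gave 734, 285 and 158 of the 1472 UMIs at 12 weeks, and 2 cells gave all 82 at 7 weeks. The macrophage list summed to 19.8 per 10000 UMIs of that gate at 12 weeks and 4.32 at 7 weeks. With 1 gate only, the CD4 T level was 12.3 CPM at 12 weeks (60 UMIs) and 0 at 7 weeks, at least 10.3-fold higher at 12 weeks with 3 counts taken for the 0. The B gate had 13.2 CPM at 12 weeks and 0 UMIs at 7 weeks, at least 5.62-fold higher at 12 weeks by the same floor. The CD8 T gate had 8.65 CPM at 12 weeks (32 UMIs in 32 cells) and 1.26 CPM at 7 weeks (6.87-fold, 1.75 to 59.1).

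These lymphocyte shares were alike across types. With every cell thinned to 3503 UMIs, Ccl8 was found at 12 weeks in 3.71% of CD8 T, 4.93% of CD4 T and 3.90% of B gate cells and in 4.57% of cells with no gate, and at 7 weeks in 0.621%, 0.296%, 0% and 0.394% of them; the 0 of 162 B gate cells allows a share of up to 1.85%. Before thinning the CD8 T, CD4 T and B shares were 6.64%, 8.12% and 7.55% at 12 weeks (median depths 5413, 4752 and 4705 UMIs) and 1.14%, 0.538% and 0 of 182 cells, which allows a share of up to 1.65%, at 7 weeks (6240, 5789 and 5306 UMIs). These shares include cells that met several gates. With 1 gate only the thinned shares at 12 weeks were 3.75% of CD8 T, 3.93% of CD4 T and 3.90% of B gate cells. At 7 weeks they were 0.654% of CD8 T cells and 0 of 306 CD4 T cells, which allows up to 0.980%. The 0 of 148 B gate cells allows up to 2.03%. Before thinning, both 7-week CD4 T gate cells with Ccl8 also met the macrophage gate. Whether lymphocytes themselves expressed Ccl8 was not tested, nor was any other source of these UMIs, and empty droplets were not analysed here.

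Ccl17 and Ccl22, the CCR4 ligands of dendritic cells, shared cells at 12 weeks. Both Ccl17 holders at 12 weeks were also Ccl22 holders, 2 of 2 Ccl17 holders and 2 of 6 Ccl22 holders: 1 dendritic-gate cell had 112 Ccl17 and 38 Ccl22 UMIs, and 1 macrophage-gate cell had 33 Ccl17 and 26 Ccl22 UMIs. No cell held both at 7 weeks. Cxcl13 and Ccl8 were held together in 5 cells at 12 weeks, 5 of 16 Cxcl13 and 5 of 15 Ccl8 holders, and in none at 7 weeks. No cell at either age held a ligand of each pair.

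Some Ccl22 holders at 12 weeks carried genes of migratory dendritic cells. There, the 6 holders had 38, 26, 10, 8, 6 and 5 UMIs, and 4 of them met the dendritic gate without the macrophage gate. All of these 4 had UMIs of Fscn1, an actin bundler of mature dendritic cells, of Il4i1, an amino acid oxidase, and of Ccr7. The cells with 38, 10, 6 and 5 Ccl22 UMIs had 2, 76, 1 and 19 of Fscn1. They had 7, 21, 1 and 41 of Il4i1 and 5, 59, 1 and 6 of Ccr7. Of the 14 Ccl8 holders of the macrophage gate at 12 weeks, 6 had Fscn1 and 7 had Il4i1. A UMI of either gene was thus not particular to Ccl22 holders. The macrophage-gate holder had Il4i1 but neither Fscn1 nor Ccr7, and the holder with no gate had Fscn1 but neither Il4i1 nor Ccr7. The cell with 10 Ccl22 UMIs had 59 of Ccr7 and 76 of Fscn1, the highest Ccr7 count of the dendritic gate. At 7 weeks the holders had 52 and 13 UMIs, the first beside 13 Ccr7 and 76 Cd3 UMIs and the second beside 11 Ccr2 UMIs. Of these, 0 of 2 had Fscn1, 1 of 2 had Il4i1 and 1 of 2 had Ccr7. Over both libraries the 7 dendritic-gate holders were led, against the other 323 cells, by Ccl17 (71.6-fold, 2 of 7), with Il12b, a subunit of interleukin 12 (15.8-fold, 2 of 7), and Ccr7 itself (14.6-fold, 5 of 7) in the list.

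Between the ages neither ligand gave a level that held apart from single cells. The dendritic gate had 28.4 CPM of Ccl22 at 12 weeks (92 UMIs) and 51.0 CPM at 7 weeks (69 UMIs; ratio 0.557, 0.403 to 0.772), and after thinning the log2 ratio turned to 0.63. It had 45.1 CPM of Ccl17 at 12 weeks (146 UMIs) and 18.5 CPM at 7 weeks (25 UMIs; ratio 2.44, 1.59 to 3.89). With the barcodes marked as doublets kept, the Ccl17 log2 ratio was 0.25 instead of 1.29. The 7-week Ccl17 holder carried 24 Cd3 UMIs beside its 24 Ccl17 UMIs. The T cell list summed to 1.41 per 10000 UMIs of the dendritic gate at 12 weeks and 6.46 at 7 weeks, and its part in these ratios was not tested.

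The partners of these ligands were sparse too. Ccr4, the receptor of CCL17 and CCL22, had 29 UMIs in the CD4 T gate at 12 weeks and 23 at 7 weeks, or 5.21 and 7.94 CPM (0.656, 0.367 to 1.19). Ccr8, the receptor of mouse CCL8, had 21 UMIs in that gate at each age, or 3.77 CPM at 12 weeks and 7.25 CPM at 7 weeks (0.520, 0.270 to 1.002). Neither receptor was higher at 12 weeks, the age at which Ccl8 and Ccl17 had more UMIs. Ccl19, a CCR7 ligand, had 41 UMIs at 12 weeks, 26 of them in 1 cell with no gate, and 0 at 7 weeks, and Ccl21a, the other CCR7 ligand measured, had 0 at both ages.

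Receptors were spread over many cells, with 610 Cxcr5, 2331 Ccr7 and 1166 Ccr2 UMIs at 12 weeks and 191, 684 and 736 at 7 weeks. Their levels by gate are shown in the plot of receptor CPM.

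**Figure D3:**
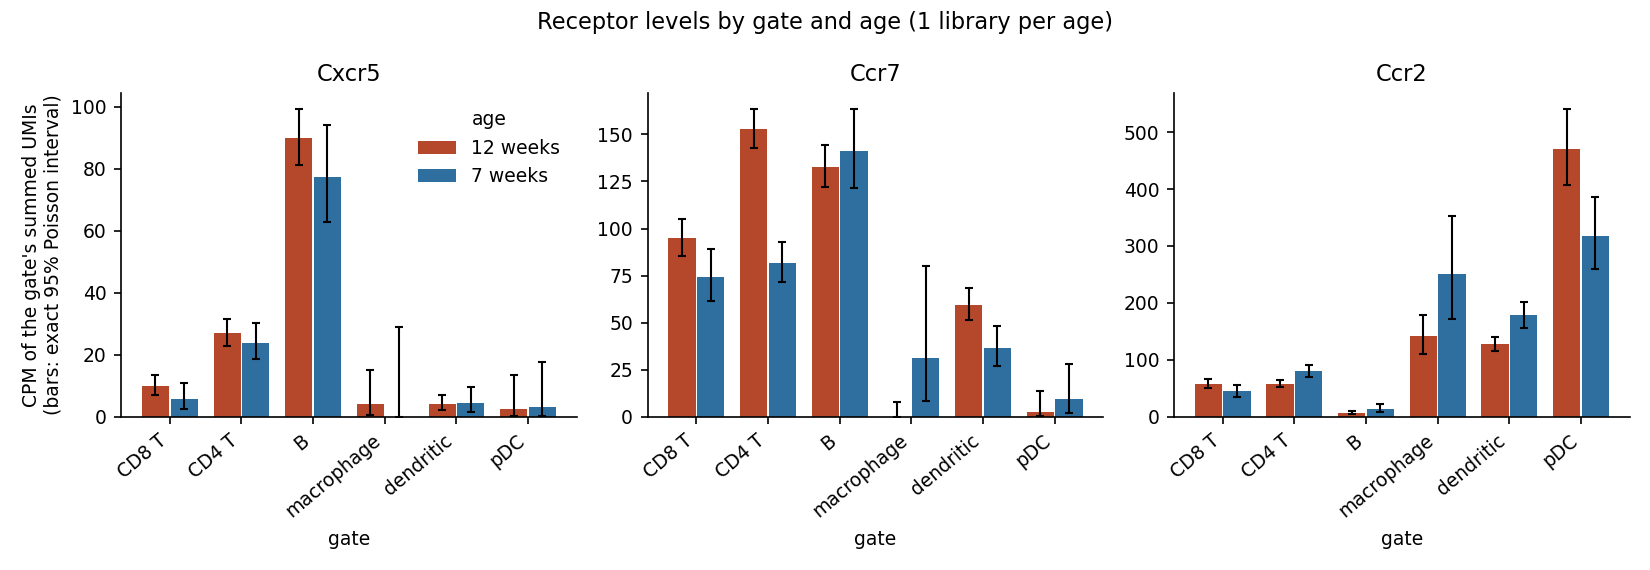
Level of Cxcr5, Ccr7 and Ccr2 in each gate, in CPM of the gate's summed UMIs, 12 weeks left of 7 weeks in each pair; bars are 95% Poisson intervals for counting error. Cxcr5 is highest in the B gate at both ages (89.8 and 77.4 CPM), Ccr7 is highest in the CD4 T gate at 12 weeks (153 CPM) and in the B gate at 7 weeks (141 CPM), and Ccr2 is highest in the pDC gate (470 and 318 CPM).

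Cxcr5, the CXCL13 receptor, followed the order B over CD4 T over CD8 T at both ages. B gate cells had 89.8 CPM (81.0 to 99.3) at 12 weeks and 77.4 CPM (62.9 to 94.2) at 7 weeks, with a UMI in 280 of 689 and 65 of 182 cells. CD4 T cells had 27.0 CPM (22.8 to 31.6) at 12 weeks and 23.8 CPM (18.5 to 30.2) at 7 weeks. The B gate level was 3.33 times that of CD4 T cells at 12 weeks (2.75 to 4.05) and 3.25 times at 7 weeks (2.36 to 4.48). CD8 T cells had 9.73 CPM at 12 weeks (36 UMIs) and 5.67 CPM at 7 weeks (9 UMIs), and the gates below them, with at most 13 UMIs each, were not separable from their neighbours in this order.

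Within a gate Cxcr5 did not differ detectably in level between the ages. The ratios of 12 over 7 weeks were 1.16 (0.929 to 1.46) in the B gate, 1.13 (0.845 to 1.53) in the CD4 T gate and 1.72 (0.811 to 4.05) in the CD8 T gate. In thinned B gate cells the share with a Cxcr5 UMI was 28.7% at 12 weeks and 19.8% at 7 weeks, a difference of 8.95 points (1.36 to 15.5), against a background of 0.833% at 12 weeks and 0 of 89 cells at 7 weeks, which allows up to 3.37%, in the dendritic gate. The unthinned B gate shares were 40.6% at 12 weeks and 35.7% at 7 weeks, at median depths of 4705 and 5306 UMIs. Over all cells Cxcr5 was 1.44 times as high at 12 weeks (32.0 CPM) as at 7 weeks (22.3 CPM; 1.22 to 1.70), while the B gate was 24.8% of the 12-week cells and 16.6% of the 7-week cells.

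Ccr7, the lymph node homing receptor, was higher at 12 weeks in CD4 T cells. They had 153 CPM (143 to 164) at 12 weeks from 851 UMIs and 81.5 CPM (71.4 to 92.6) at 7 weeks from 236 UMIs (ratio 1.88, 1.62 to 2.18). CD8 T cells had 94.8 CPM at 12 weeks and 74.3 CPM at 7 weeks (ratio 1.28, 1.03 to 1.59). In the B gate the levels were 133 CPM at 12 weeks and 141 CPM at 7 weeks (ratio 0.939, 0.793 to 1.12), a difference within counting error. With 1 gate only the CD4 T ratio was 1.83 (1.57 to 2.13), about as large as with every cell of the gate.

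The order of the gates for Ccr7 differed between the libraries. At 12 weeks CD4 T cells stood 1.15 times above B gate cells (1.03 to 1.28), and these stood 1.40 times above CD8 T cells; with 1 gate only the CD4 T and B gates were not separable (1.11, 0.988 to 1.24). At 7 weeks B gate cells stood 1.74 times above CD4 T cells (1.42 to 2.12), and CD4 T and CD8 T cells were not separable (1.10, 0.876 to 1.38). Below the lymphocytes came the dendritic gate at both ages, with 59.3 CPM at 12 weeks and 36.3 CPM at 7 weeks, although with 1 gate only it was not separable from CD8 T cells at 12 weeks (1.13, 0.933 to 1.38). The macrophage gate had 0 Ccr7 UMIs at 12 weeks and 4 at 7 weeks, and the pDC gate 1 and 3.

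Shares of Ccr7-positive cells moved the same way as the levels in CD4 T cells. After thinning 33.3% of CD4 T cells had a Ccr7 UMI at 12 weeks and 22.2% at 7 weeks, a difference of 11.1 points (5.41 to 16.5). The unthinned shares were 41.2% at 12 weeks and 35.8% at 7 weeks, at median depths of 4752 and 5789 UMIs. Thinned shares in CD8 T cells were 27.9% at 12 weeks and 24.2% at 7 weeks (3.72 points, -4.44 to 11.1), and in the B gate 34.5% and 39.5% (-5.03 points, -13.5 to 3.10), neither difference clear of counting error. In the pDC gate, which served as background, the thinned share was 1.92% at 12 weeks and 0 of 28 cells at 7 weeks, which allows up to 10.7%.

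In the dendritic gate Ccr7 rested on a few very high cells, much like Ccl22. The top 3 cells had 59, 57 and 20 UMIs at 12 weeks and 14, 13 and 4 at 7 weeks, and the top 5 held 78.1% and 71.4% of the gate's UMIs. The ratio of 1.64 (1.19 to 2.29) therefore depends on them: without the 5 top cells of each library the log2 ratio was 0.25 instead of 0.71. Only 6.25% of thinned dendritic-gate cells had a Ccr7 UMI at 12 weeks and 7.87% at 7 weeks.

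Ccr2, the monocyte receptor, had its highest level in the pDC gate when every cell of a gate was counted. The pDC gate had 470 CPM (407 to 541) at 12 weeks and 318 CPM (259 to 387) at 7 weeks, with a UMI in 47 of 53 and 28 of 29 cells, and after thinning in 75.0% of cells at each age. The macrophage gate had 141 CPM at 12 weeks (68 UMIs in 14 of 34 cells) and 250 CPM at 7 weeks (32 UMIs in 8 of 11 cells). The dendritic gate had 128 CPM at 12 weeks and 178 CPM at 7 weeks (ratio 0.716, 0.609 to 0.842). At 12 weeks the pDC gate stood above the macrophage gate (3.33 times, 2.52 to 4.46), whereas at 7 weeks these neighbours were not separable (1.27, 0.847 to 1.96), and the macrophage and dendritic gates were not separable at either age. With 1 gate only, which left 4 macrophage-gate cells at 12 weeks and 1 at 7 weeks, the order was less clear. The pDC and macrophage gates were then not separable at 12 weeks (1.24, 0.566 to 3.23), nor the pDC and dendritic gates at 7 weeks (1.16, 0.817 to 1.61).

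Among lymphocytes Ccr2 was lower at 12 weeks in CD4 T cells. Their level was 57.7 CPM at 12 weeks (321 UMIs) and 79.4 CPM at 7 weeks (230 UMIs; ratio 0.726, 0.611 to 0.864), and with 1 gate only 0.720 (0.593 to 0.875). In thinned CD4 T cells 11.02% had a UMI at 12 weeks and 16.6% at 7 weeks, a difference of -5.54 points (-10.3 to -1.23), and the unthinned shares were 13.4% and 22.6%. With 1 gate only the thinned difference was -3.99 points (-8.81 to 0.28), an interval that holds 0. In CD8 T cells the ratio was 1.28 (0.970 to 1.69), from 57.0 CPM at 12 weeks and 44.7 CPM at 7 weeks. The CD8 T gate held 14 cells at 12 weeks and 2 at 7 weeks that also met the pDC gate, and with 1 gate only the ratio was 0.965 (0.693 to 1.36). Within an age, CD4 T and CD8 T cells did not differ beyond counting error at 12 weeks (1.01, 0.848 to 1.21; with 1 gate only 1.46, 1.17 to 1.83), and CD4 T cells were higher at 7 weeks (1.78, 1.36 to 2.35). Between the ages, Ccr7 and Ccr2 moved in opposite directions in CD4 T cells.

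B gate cells, a type not known for Ccr2, had 6.11 CPM at 12 weeks and 13.3 CPM at 7 weeks from 26 and 17 UMIs (ratio 0.460, 0.240 to 0.904). At 12 weeks a few cells held most of these, with 10, 8 and 3 UMIs in the top 3, and with 1 gate only 4 UMIs remained, or 1.13 CPM. At 7 weeks 11 UMIs remained with 1 gate only, or 10.9 CPM, and the top cells held 4 and 3. A UMI was found in 0.780% of thinned B gate cells at 12 weeks and 3.70% at 7 weeks (unthinned 1.16% and 5.49%). The CD8 T gate's thinned shares, 10.3% at 12 weeks and 9.94% at 7 weeks, stood above those of the B gate at both ages. Which B gate UMIs came from the cells themselves was not tested.

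**Figure D4:**
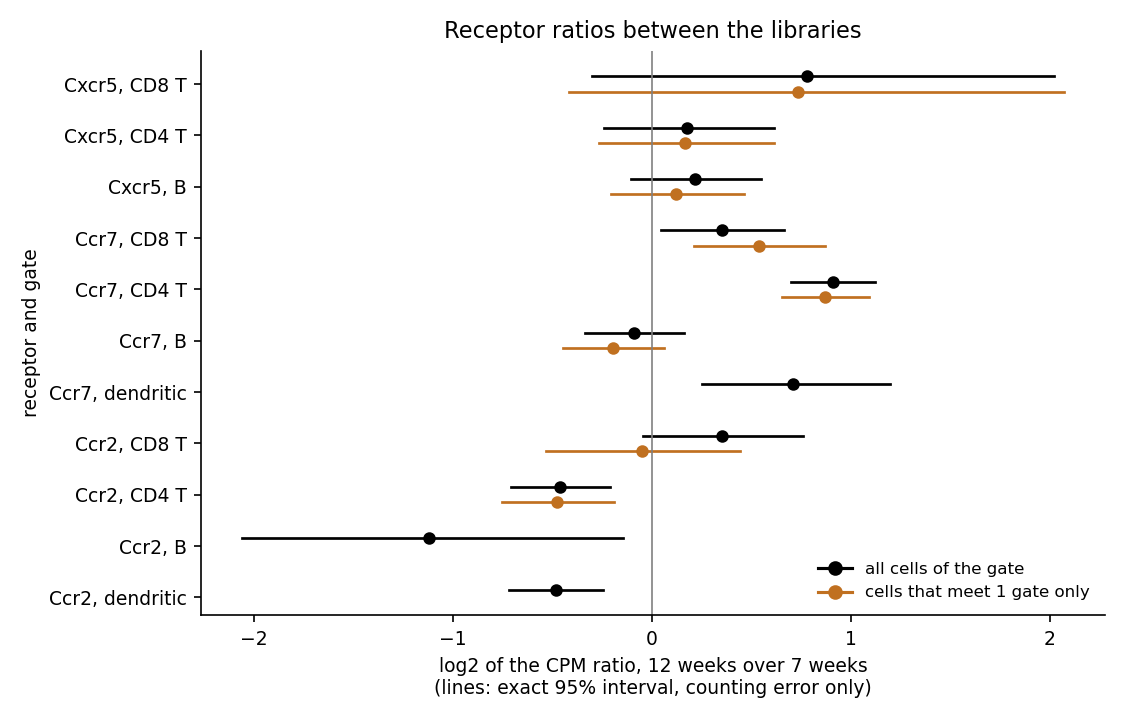
Ratio of 12 over 7 weeks of each receptor's CPM in each gate with at least 50 cells per library and 20 UMIs over both, on a log axis, with 95% intervals for counting error; paired marks show all cells of the gate and cells with 1 gate only. Ccr7 in CD4 T cells lies above 1 (1.88) and Ccr2 in CD4 T cells below 1 (0.726) in both sets of cells; too few cells or UMIs remained to draw 1 gate only for Ccr7 in the dendritic gate and Ccr2 in the B and dendritic gates.

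Set against all genes, the members that passed 2-fold between the ages were mainly the ligands with few holders. Among genes with enough UMIs to be counted in the dendritic gate, 4.73% were at least 2-fold higher and 4.54% at least 2-fold lower at 12 weeks; 6 members were counted, and Cxcl13, Ccl8 and Ccl17 were higher. In the CD4 T gate 2.94% of genes were higher and 3.42% lower; of 6 members counted, Ccl8 was higher and Ccl17, with all of its 24 UMIs in 1 cell at 7 weeks, was lower. In the CD8 T gate 3.52% were higher and 3.27% lower, and Ccl8 was the only one of 4 counted members past 2-fold. In the B gate 3.82% were higher and 4.08% lower, with Ccl8 higher and Ccr2 lower of 4 counted. No receptor passed 2-fold in a T cell or dendritic gate.

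The wider chemokine system, 39 ligands and 23 receptors, did not move as a block. Of all genes counted, 4.73% were at least 2-fold higher and 4.54% lower at 12 weeks in the dendritic gate. These shares were 2.94% and 3.42% in the CD4 T gate, 3.52% and 3.27% in the CD8 T gate and 3.82% and 4.08% in the B gate. In the dendritic gate 34 of the 62 genes were counted; 5 were at least 2-fold higher at 12 weeks (Ccl8, Ccl12, Ccl17, Cxcl12 and Cxcl13), 4 were at least 2-fold lower (Ccl7, Cxcl2, Ccr10 and Cxcr6), and the median log2 ratio was -0.11 against 0.02 over all genes. In the CD4 T gate 34 were counted, 5 of them higher and 5 lower, with a median of -0.06. In the CD8 T gate 6 of 21 were higher and 2 lower (median 0.45 against 0.03 over all genes), and in the B gate 4 of 21 were higher and 3 lower (median 0.07). The CD8 T gate held 14 pDC-gate and 11 dendritic-gate cells at 12 weeks, against 2 and 5 at 7 weeks. Of its 6 higher genes, Ccl8 (6.23) and Ccl1 (4.19) stayed past 2-fold with 1 gate only. Ccr9 then went from 2.60 to 1.78 and Ccrl2 from 2.68 to 0.903, and Cxcl9 and Xcr1 fell under the minimum of 20 UMIs. Of the CCR2 ligands, Ccl12 stood at 66.4 CPM in the dendritic gate at 12 weeks and 18.5 CPM at 7 weeks (3.59-fold, 2.37 to 5.67), whereas Ccl2 stood at 29.97 CPM and 41.4 CPM (0.723, 0.515 to 1.02).

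The cells that carry each receptor differed in their other genes, compared here in thinned cells with 1 gate only. CD4 T cells with a Ccr7 UMI numbered 246 against 466 without at 12 weeks and 69 against 237 at 7 weeks. Of the naive T cell genes counted, 7 of 7 were higher in them at both ages. Lef1, a transcription factor of naive T cells, was 3.40 times as high at 12 weeks (2.91 to 3.99) and 3.90 times at 7 weeks (2.86 to 5.31). Of 9 effector genes 0 were higher at 12 weeks and 1 at 7 weeks, and Ccl5, a chemokine of effector and memory T cells, was at 0.127 and 0.0883 of its level in Ccr7-negative cells. Follicular helper genes were lower too, with 0 of 7 higher at 12 weeks and 0 of 6 at 7 weeks. Of all genes counted, 33.2% were higher in Ccr7-positive cells at 12 weeks and 38.1% at 7 weeks, and the median log2 ratio was -0.20 and -0.15.

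CD8 T cells showed the same division. In the 124 Ccr7-positive cells at 12 weeks, against 303 negative, 8 of 8 naive genes were higher, and in the 38 at 7 weeks, against 115 negative, 7 of 7 were higher, where 36.1% and 39.8% of all genes were. Lef1 was 2.69 times as high at 12 weeks and 3.54 times at 7 weeks. Of 9 effector genes 0 were higher at either age, and Gzmk, a granzyme of memory-type CD8 T cells, was at 0.0970 of its level in negative cells at 12 weeks and 0.185 at 7 weeks.

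CD4 T cells with a Ccr2 UMI, 74 against 638 without at 12 weeks and 44 against 262 at 7 weeks, carried effector and regulatory genes. Effector genes were higher in 9 of 9 cases at 12 weeks and 8 of 9 at 7 weeks, led by Cxcr6, a receptor of tissue T cells, at 5.50 times (4.41 to 6.83) and 6.44 times (4.75 to 8.74). Regulatory genes were higher in 4 of 4 cases at 12 weeks and 3 of 3 at 7 weeks: Ctla4, an inhibitory receptor, was 4.36 times as high (3.50 to 5.41) at 12 weeks and 5.86 times (4.50 to 7.61) at 7 weeks, and Foxp3 was 3.28 times at 12 weeks and 2.05 times (0.893 to 4.33) at 7 weeks. Naive genes were higher in 2 of 7 cases at 12 weeks and 4 of 7 at 7 weeks. Of all genes, 53.9% were higher at 12 weeks and 54.5% at 7 weeks, so the naive count at 7 weeks lies near the share of all genes. In CD8 T cells the Ccr2-positive cells, 34 at 12 weeks and 14 at 7 weeks, had 8 of 9 and 9 of 9 effector genes higher, against 50.8% and 54.5% of all genes.

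CD4 T cells with a Cxcr5 UMI, 62 against 650 without at 12 weeks and 17 against 289 at 7 weeks, had higher follicular helper genes. These were higher in 7 of 7 cases at 12 weeks and 5 of 6 at 7 weeks, against 55.2% and 45.8% of all genes. Tox2 was 2.77 times as high at 12 weeks (1.58 to 4.64) and 4.09 times at 7 weeks (2.05 to 7.60), and Pdcd1 1.85 times at each age. Icos, the costimulator of follicular helper cells, was at 1.08 at 12 weeks and 0.309 at 7 weeks, the exception. Tcf7, a transcription factor shared by naive and follicular helper cells, was the only naive gene of 7 that was higher, at 1.79 times at 12 weeks and 2.01 times at 7 weeks. In the B gate the Cxcr5-positive cells, 181 at 12 weeks and 31 at 7 weeks, had 6 of 6 and 4 of 6 B cell genes higher, with medians of only 0.10 and 0.24 on the log2 scale and none past 2-fold, where 49.3% and 52.9% of all genes were higher. Of 3 plasma cell genes counted, 0 were higher in the Cxcr5-positive cells at 12 weeks and 1 at 7 weeks. The list medians were -0.29 and -0.13 on the log2 scale. Only Jchain, the joining chain of secreted antibody, was at least 2-fold lower, at 0.0188 and 0.198 of its level in negative cells.

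**Figure D5:**
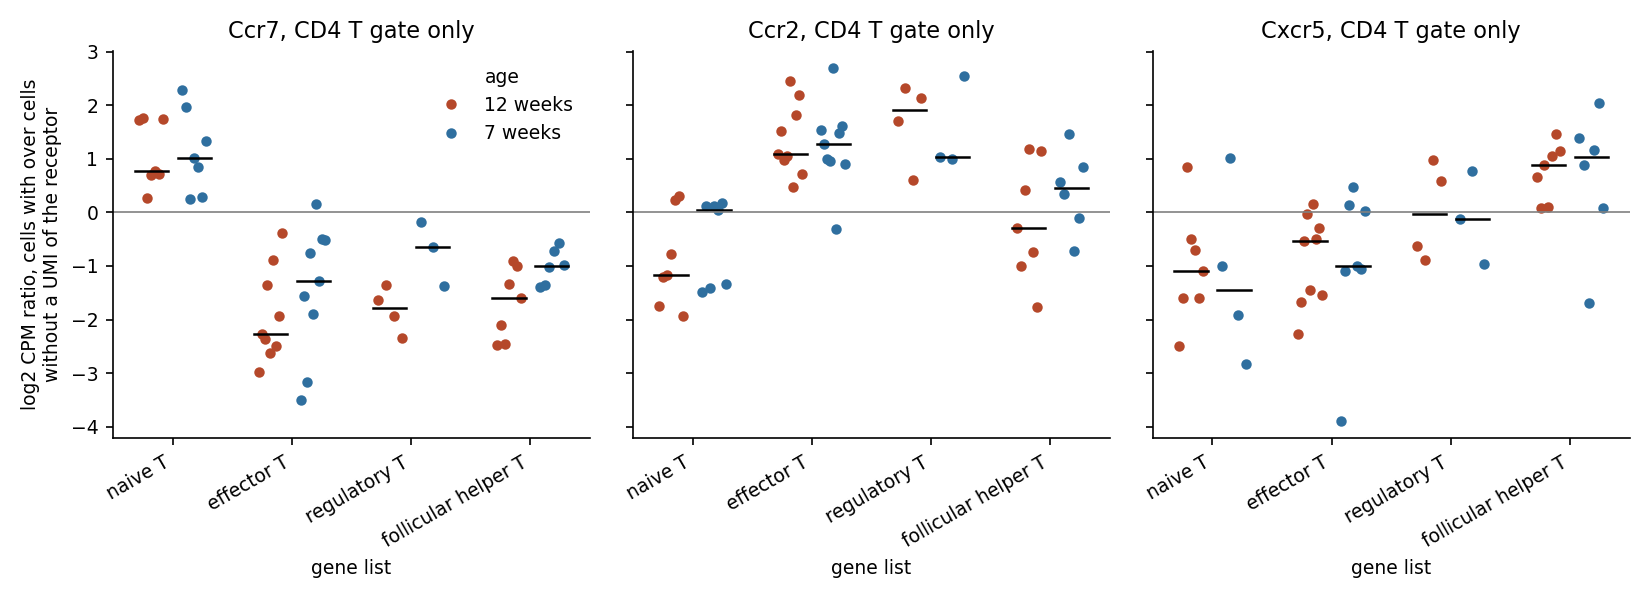
Log2 ratio of listed genes in CD4 T cells (1 gate only, thinned) with a Ccr7, Ccr2 or Cxcr5 UMI over those without, 12 weeks left of 7 weeks; each point is a gene with at least 20 UMIs and the black line is the median of the drawn genes of a list. Naive genes lie above 0 in Ccr7-positive cells (7 of 7 at both ages), effector genes in Ccr2-positive cells (9 of 9 and 8 of 9) and follicular helper genes in Cxcr5-positive cells (7 of 7 and 5 of 6); genes at 0 UMIs in the positive cells, which occur for Cxcr5 at 7 weeks, cannot be drawn.

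Ccr2 was seldom found in Ccr7-positive T cells at 12 weeks. Among CD4 T cells with 1 gate only, a Ccr2 UMI was found in 6 of 246 Ccr7-positive cells at 12 weeks (2.44%, 0.900 to 5.23) and in 68 of 466 Ccr7-negative cells (14.6%, 11.5 to 18.1). At 7 weeks it was found in 6 of 69 positive cells (8.70%, 3.26 to 18.0) and 38 of 237 negative cells (16.0%, 11.6 to 21.3), intervals that overlap. In CD8 T cells the shares were 2 of 124 (1.61%) against 32 of 303 (10.6%) at 12 weeks and 1 of 38 (2.63%, 0.067 to 13.8) against 13 of 115 (11.3%, 6.16 to 18.6) at 7 weeks, where the intervals overlap again. Ccr7 was found in 10 of 62 Cxcr5-positive CD4 T cells at 12 weeks (16.1%), against 236 of 650 negative cells (36.3%), and in 2 of 17 at 7 weeks (11.8%, 1.46 to 36.4), against 67 of 289 (23.2%, 18.4 to 28.5), which overlap. In B gate cells, by contrast, Ccr7 was as frequent with Cxcr5 as without it within counting error, in 63 of 181 (34.8%) against 146 of 408 (35.8%) at 12 weeks and 14 of 31 (45.2%) against 46 of 117 (39.3%) at 7 weeks.

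Dendritic-gate cells with a Ccr7 or a Ccr2 UMI were compared with the rest of their gate in the same way. At 12 weeks the 10 Ccr7-positive cells had 7 of 8 migratory dendritic genes higher than the 120 negative cells, with Fscn1 15.4 times as high and Il4i1 13.1 times (8.49 to 20.3). Of all genes 38.0% were higher there. At 7 weeks only 3 cells were Ccr7-positive, and 3 of 5 such genes were higher, near the share of all genes (46.0%). The 30 Ccr2-positive cells at 12 weeks, against 100 negative, had 2 of 8 migratory genes higher, against 45.9% of all genes, and Cd209a, a lectin of monocyte-related dendritic cells, 14.4 times as high (6.88 to 33.9). At 7 weeks, with 17 positive against 32 negative cells, Cd209a was at 1.88 times (0.857 to 4.13). Irf8, a dendritic cell transcription factor, was 2.69 times as high at 12 weeks (1.87 to 3.85) and 2.46 times at 7 weeks (1.43 to 4.27). Of the dendritic cell genes counted, 7 of 10 were higher in Ccr2-positive cells at 12 weeks, against 45.9% of all genes. At 7 weeks 4 of 7 were higher, near the 50.3% of all genes, and 1 was at least 2-fold lower at each age.

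Across the 12 sums of 6 gates at each of the ages, each receptor was compared with every gene that had at least 50 UMIs. The genes most like Cxcr5 were Fcrl1, a B cell surface receptor (Pearson r 0.97), Dclk2 (0.96) and Gdf11 (0.95). For Ccr7 they were the ribosomal protein gene Rpl21 (0.95), the elongation factor gene Eef1a1 (0.94) and Phkg2 (0.93). For Ccr2 they were Tyrobp, a signalling adaptor of myeloid cells (0.96), Cyth4 (0.96) and Irf2bp2 (0.95). These sums share their library, and gates that overlap share cells.

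RNA of other cells differed between the libraries. The islet endocrine list summed to 80.4 per 10000 UMIs of the dendritic gate at 12 weeks and 0.644 at 7 weeks, and to 13.6 and 0.352 of the CD4 T gate. In the macrophage gate it summed to 1.66 at 12 weeks and 2.97 at 7 weeks. The part of such RNA in the differences given here was not tested.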

How the data were processed

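The deposited files are matrices of whole UMI counts per gene and cell barcode, one for each age, not normalized; per the submitters' processing notes they were made with Cell Ranger 1.3.1 on the mouse build mm10. The authors' gene annotation is not given in the sources used here. At deposit the library at 12 weeks held 2812 barcodes and 19288252 UMIs, and that at 7 weeks 1113 and 8701184.

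Barcodes with under 200 genes or over 10% mitochondrial UMIs were left out, 8 from the 12-week and 4 from the 7-week library. Scrublet was used to score doublets, in scanpy 1.11.5, with 2 simulated doublets per barcode and 30 principal components. At 12 weeks its automatic threshold removed 22 barcodes. At 7 weeks that threshold marked 0.180% of barcodes, under the limit of 0.5% at which a caller is taken to have failed, so the top scores at a loading rate of 0.8% per 1000 barcodes were removed, 10 in all.

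UMIs were summed per gate and library and scaled to CPM (a total of 1000000 UMIs). A ratio between the ages was given only in gates with at least 50 cells per library and 20 UMIs over both; the alternatives of such ratios, and ratios between gates of one library, had no such minimum. Intervals at 95% are exact Poisson for levels, Clopper-Pearson for shares, conditional binomial for ratios and Newcombe for differences of shares, computed with scipy 1.17.1 and numpy 2.4.6 in Python 3.11.15. Every share, interval and limit from a 0 covers counting error only, and a 0 was taken as 3 counts for a bound, in place of a Clopper-Pearson limit. Shares were also computed in cells thinned to 3503 UMIs, the 10th percentile, with shallower cells left out: 771 of 874 CD4 T, 458 of 482 CD8 T and 641 of 689 B gate cells were used at 12 weeks, and 338 of 372, 161 of 176 and 162 of 182 at 7 weeks. Cells with and without a receptor UMI were compared in the thinned cells, over list genes with at least 20 UMIs.

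The genes named are the 7 members, their partner ligands and receptors, the 3 genes most correlated with each receptor over the 12 sums of log2(CPM + 10), and genes among the 8 of largest fold (prior of 10 CPM) in the holders of each ligand, with genes of the marker lists. The members and the lists were chosen with earlier results of these data known. The ratio computations were tested on simulated data. Alternatives were no doublet removal, cells of 1 gate only, stricter gates, leaving out the 5 top cells, thinning, a mean of each cell's own CPM, median-of-ratios scaling, a limit of 5% mitochondrial UMIs and a minimum of 50 UMIs. Results for some genes of the marker lists are not reported here.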

Additional observations from a re-analysis of the deposited data

Results flagged for a closer look

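Barcodes left out by the filters, 30 at 12 weeks and 14 at 7 weeks, held more than 3 UMIs of 4 members, a signal outside the cells analysed above. At 12 weeks 13 Cxcr5 UMIs lay in 9 such barcodes, at most 3 in a barcode, or 51.4 CPM against 32.0 CPM in the cells kept. At 12 weeks 25 Ccr7 UMIs lay in 14 of them, at most 5 in a barcode, or 98.8 CPM against 122 CPM. At 12 weeks 13 Ccr2 UMIs lay in 4 of them, at most 8 in a barcode, or 51.4 CPM against 61.3 CPM. At 7 weeks 8 Ccr7 UMIs lay in 6 barcodes and 8 Ccr2 UMIs in 5, each 55.5 CPM, against 79.9 CPM of Ccr7 and 86.0 CPM of Ccr2 in the cells kept. At 7 weeks 29 Ccl17 UMIs lay in 1 barcode, more than the 25 UMIs of all cells kept. That barcode was removed as a doublet, and it held 36 Cd3, 139 Cst3 and 154 H2-Aa UMIs. Of the other members, Ccl8 had 1 UMI in such barcodes at 12 weeks and Cxcl13 and Ccl22 had none.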

How the results depend on the processing

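The 11 receptor ratios were recomputed under 91 alternatives in all; 86 kept their sign, and 81 stayed within the counting interval of the value above. Log2 ratios of 12 over 7 weeks outside that interval were as follows. For Cxcr5 they were 2.28 in the CD8 T gate without the 5 top cells of each library and 0.77 in the CD4 T gate after thinning. For Ccr7 in the dendritic gate they were 1.48 with 1 gate only and 0.25 without the top cells. For Ccr2 in the CD8 T gate they were -0.051 with 1 gate only and -0.049 after thinning. For Ccr2 in the B gate they were -3.26 with 1 gate only, -2.54 without the top cells and -2.18 after thinning, and in the dendritic gate -0.90 with 1 gate only. The cause was not tested.

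Among the holder counts, Cxcl13 at 12 weeks had 9 after thinning. At 7 weeks Ccl17 had 2 holders without doublet removal, and 0 without the macrophage- and dendritic-gate barcodes that held 3 or more Cd3 UMIs. At 7 weeks Ccl22 and Ccl8 each had 1 holder after thinning and 1 without those barcodes. With a minimum of 50 UMIs, fewer genes were tested, and 109 were at least 2-fold higher and 151 at least 2-fold lower at 12 weeks in the CD8 T gate, against 322 and 299 at 20 UMIs. The same counts were 141 and 200 in the CD4 T gate (against 301 and 350), 116 and 183 in the B gate (against 344 and 367) and 178 and 214 in the dendritic gate (against 442 and 424). Leaving out the Cd3-bearing barcodes and keeping only CD4 T cells with a Cd3 UMI and no other gate were chosen after seeing the data.

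No paired analysis was possible because each age is 1 library, and for the same reason no replicate could be left out. Depth limits the gates with few cells: the macrophage gate held 34 cells at 12 weeks and 11 at 7 weeks, and the ligand levels rest on single cells. No interval here covers differences between mice or between library preparations.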

Other observations

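Cells that met no gate, 577 at 12 weeks and 303 at 7 weeks, also carried the receptors. Their Ccr7 level was 125 CPM at 12 weeks and 68.7 CPM at 7 weeks (ratio 1.82, 1.497 to 2.24). Their Ccr2 level was 67.7 CPM at 12 weeks and 88.2 CPM at 7 weeks (ratio 0.767, 0.627 to 0.940). Their Cxcr5 level was 13.4 CPM at 12 weeks and 6.34 CPM at 7 weeks (ratio 2.12, 1.11 to 4.38). Ccr7 was thus higher and Ccr2 lower at 12 weeks in these cells, the directions found in the CD4 T gate.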
